A study of Mus musculus with 8 samples.

Results

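The regions described here are distal glucocorticoid receptor (GR) sites of the mouse liver that carried a called ChIP-seq peak in both corticosterone libraries and in none of the other 4 GR libraries. They were chosen by the measured peak calls themselves: overlapping peaks of the 6 GR lists were merged into 51431 sites, sites with a peak in both corticosterone lists and in no other list were kept, and only those whose centre lay more than 1 kb from every annotated transcript start were retained (mm10, GENCODE M21 basic). The rule left 1219 sites, called CORT-only distal sites below, of 38555 distal sites. A further 344 sites met the rule on peak calls but lay closer to a transcript start. Since the calls chose the sites, the strength of their peaks is given as a description, and no test was run on it.

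GR ChIP-seq had been made from snap-frozen livers of adult male C57BL/6J mice in 3 groups of 2 libraries each, and per the methods of the study the livers were taken at the onset of the dark phase. Control mice (ctrl.) had access to chow at night only during their last week. Calorically restricted mice (cal. res.) received a reduced daily ration at dark onset for several weeks. Mice of the third group (CORT) were fed at night like the control mice and were injected intraperitoneally with corticosterone, the main glucocorticoid of rodents, shortly before dark onset on each day of a week. The labels do not say whether the ctrl. livers came from mice injected with vehicle, and access to chow limited to the night was shared by ctrl. and CORT only. A list of 8068 FOXO1 regions, from 2 cal. res. libraries merged by the authors, was used for 1 comparison. Per the methods these were called at a much stricter q-value than the GR peaks. Whole livers were used, so the share of cells in which a site was bound and the occupancy per cell cannot be told apart.

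GR is a nuclear receptor that rests in the cytoplasm in a complex with heat shock proteins and their co-chaperones, and moves to the nucleus when it binds corticosterone. It contacts DNA directly at glucocorticoid response elements (GREs), which are imperfect palindromes of a hexamer, or is found at sites of other factors such as STAT5, C/EBP, HNF4 and forkhead proteins. In liver it is known for driving gluconeogenesis and amino acid breakdown, for its feedback through Fkbp5 and Per1, and for joint action with STAT5 downstream of growth hormone and with STAT3 downstream of interleukin-6.

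The sequences of the strongest CORT-only distal sites that held a recognisable element are shown first, because the comparisons turn on these elements. Each line gives 200 bases of the mm10 plus strand (GRCm38, RefSeq), centred on the summit of the CORT list in which the site ranked higher. In the first set, capitals mark the STAT element TTCNNNGAA. The first Fkbp5 window (chr17:28498238-28498437) and the second (chr17:28495941-28496140) lie in introns of that gene, the Acox2 window (chr14:8267865-8268064) lies upstream of it between genes, and the Il1r1 window (chr1:40236926-40237125) lies in an intron.
Fkbp5, first site: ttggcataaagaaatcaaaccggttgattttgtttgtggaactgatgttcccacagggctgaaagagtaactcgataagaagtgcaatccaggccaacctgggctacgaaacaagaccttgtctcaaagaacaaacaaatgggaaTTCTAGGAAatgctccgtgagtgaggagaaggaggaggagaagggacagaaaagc
Acox2: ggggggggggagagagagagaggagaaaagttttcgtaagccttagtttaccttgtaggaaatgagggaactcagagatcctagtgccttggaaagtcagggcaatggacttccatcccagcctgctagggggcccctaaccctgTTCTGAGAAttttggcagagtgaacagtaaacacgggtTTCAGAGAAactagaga
Fkbp5, second site: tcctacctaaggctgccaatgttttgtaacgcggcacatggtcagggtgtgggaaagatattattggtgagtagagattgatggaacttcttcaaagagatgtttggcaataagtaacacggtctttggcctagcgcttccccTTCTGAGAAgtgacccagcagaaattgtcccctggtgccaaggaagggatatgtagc
Il1r1: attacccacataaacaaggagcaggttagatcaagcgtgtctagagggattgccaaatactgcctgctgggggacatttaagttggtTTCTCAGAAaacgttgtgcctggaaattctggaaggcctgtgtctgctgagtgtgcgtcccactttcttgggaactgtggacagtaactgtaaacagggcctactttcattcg

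In the Il1r1 window the STAT element was centred 8 bases from the summit. In the Acox2 window and in both Fkbp5 windows it lay 48 to 88 bases away, and the Acox2 window and the first Fkbp5 window also held the GR hexamer AGAACA on either strand.

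In the second set, capitals mark the palindromic GRE, searched as GNACA, then 3 free bases, then TGTNC. The windows lie downstream of Chaf1b between genes (chr16:93912919-93913118), between genes downstream of Gadd45g (chr13:52072305-52072504), in an intron of Gng7 (chr10:80994733-80994932) and upstream of Obp2a between genes (chr2:25697202-25697401).
Chaf1b: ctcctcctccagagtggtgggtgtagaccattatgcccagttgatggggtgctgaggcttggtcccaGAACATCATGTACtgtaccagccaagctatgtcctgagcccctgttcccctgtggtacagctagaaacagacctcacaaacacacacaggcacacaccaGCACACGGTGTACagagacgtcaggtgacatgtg
Gadd45g: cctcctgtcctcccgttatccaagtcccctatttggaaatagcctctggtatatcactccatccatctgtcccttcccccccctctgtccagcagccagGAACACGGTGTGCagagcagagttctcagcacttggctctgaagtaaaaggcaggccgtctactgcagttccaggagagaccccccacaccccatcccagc
Gng7: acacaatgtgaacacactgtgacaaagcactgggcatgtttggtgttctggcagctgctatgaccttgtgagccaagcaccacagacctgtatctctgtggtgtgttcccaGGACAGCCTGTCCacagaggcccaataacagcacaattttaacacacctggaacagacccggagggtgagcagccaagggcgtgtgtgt
Obp2a: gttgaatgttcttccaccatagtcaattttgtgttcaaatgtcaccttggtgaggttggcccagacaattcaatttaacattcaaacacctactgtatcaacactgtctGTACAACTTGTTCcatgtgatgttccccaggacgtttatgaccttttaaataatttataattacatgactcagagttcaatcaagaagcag

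The GRE was centred within 26 bases of the summit in all 4 windows, and the Chaf1b window held another GRE 72 bases away. The last window is that of the strongest site overlapping a FOXO1 region, between genes downstream of Cyp4f37 (chr17:32637265-32637464), with the forkhead element GTAAACA, the reverse complement of TGTTTAC, in capitals.
Cyp4f37: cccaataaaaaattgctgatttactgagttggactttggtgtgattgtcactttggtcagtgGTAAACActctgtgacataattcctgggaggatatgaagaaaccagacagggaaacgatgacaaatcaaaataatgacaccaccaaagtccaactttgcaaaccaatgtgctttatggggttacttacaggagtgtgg

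The lists differed in length, which bears on every count of sites found in some lists only. They held 29473 and 39136 distinct regions in CORT replicates 1 and 2, 36234 and 12458 in ctrl., and 22707 and 18747 in cal. res., all called up to a q-value between 0.0994 and 0.0998. Read totals were not analysed here. The lowest local background of a list, rebuilt from fold enrichment and p-value, stands in for depth and was 0.806 fragments in CORT replicate 1, 1.80 in CORT replicate 2 and 1.34 to 2.12 in the other lists. Library names came in 2 styles, 1 shared by both CORT libraries and ctrl. replicate 1 and the other by ctrl. replicate 2 and both cal. res. libraries. The labels do not say what the styles mark, and CORT and cal. res. cannot be told apart from them. With 2 libraries against 2, an exact two-sided permutation test cannot give a p below 0.333, so no difference between groups was tested, and n is 2 libraries a group throughout.

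The CORT-only rule was met by 3.16% of all distal sites. The same rule for the other groups was met far less often, by 53 sites with a peak in both cal. res. lists only (0.137%) and by 38 sites with a peak in both ctrl. lists only (0.0986%). A peak in all 4 ctrl. and cal. res. lists and in no CORT list was found at 10 distal sites (0.0259%). The lists of the groups differ in length, and the counts for the other groups were not taken with lists of equal length. They are therefore not a like comparison. The CORT-only number moved with list length. With the 12458 regions of smallest p-value in every library, 205 CORT-only distal sites were left. Dropping ctrl. replicate 1 from the rule raised the number to 3036, whereas dropping CORT replicate 1 or CORT replicate 2, so that a peak in the remaining CORT list sufficed, gave 8740 and 4140.

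A missing region is a missing call in that list, not a measurement of no binding. The sites nearest to the rule show this: 2157 distal sites had a peak in both CORT lists and in exactly 1 other list, and for 1783 of them that list was ctrl. replicate 1. It was cal. res. replicate 1 for 224, cal. res. replicate 2 for 119 and ctrl. replicate 2 for 31.

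Most CORT-only distal sites were weak peaks of their lists, with a small number of very strong ones. Fold enrichment over local background, which is comparable within a list only, had a median of 4.66 in CORT replicate 1 (range 2.96 to 42.6) and of 4.24 in CORT replicate 2 (2.62 to 66). This placed the median site at percentile 27.0 of the replicate 1 list and at percentile 34.5 of the replicate 2 list. The rebuilt summit pileup had a median of 8 fragments in replicate 1 (1215 sites) and of 12 in replicate 2 (1216 sites). Such small numbers make the folds coarse: 86 of the sites shared a fold of 4.43 in replicate 1, and 75 shared 3.93 in replicate 2. Distal sites held by all 6 lists stood at percentiles 82.2 and 88.5 (medians, n = 5019), and the sites with 1 additional list at 33.0 and 45.4.

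The 2 CORT replicates ranked the CORT-only distal sites differently. A q-value of at most 1e-05 was reached by 410 sites in replicate 1 and by 482 in replicate 2, but by 211 in both. Only 106 of the 1219 sites were above the median of both lists and 3 were above percentile 90 in both. Across sites, the folds of the replicates had a Spearman correlation of 0.27. It was 0.30 at the sites with exactly 1 additional list and 0.75 at the sites held by all 6 lists, so a low value was not particular to the CORT-only ones. These are descriptions across sites, which share their libraries. The summits of the replicates were a median of 76 bp apart, against 61 bp with exactly 1 additional list and 25 bp at sites in all 6 lists. Summits lay within 50 bp of each other at 461 sites (37.8%), against 43.7% of sites with exactly 1 additional list.

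**Figure D1:**
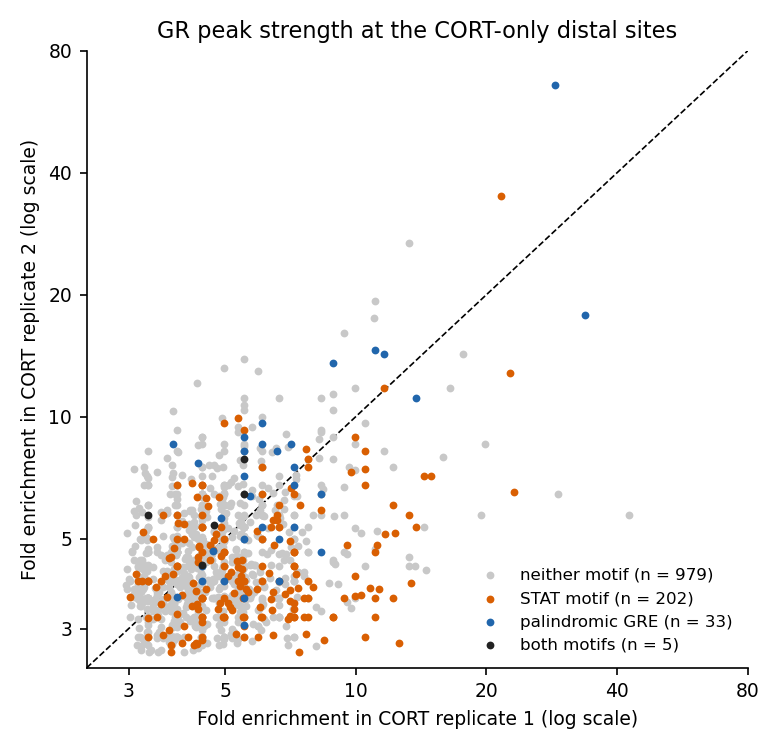
Fold enrichment of each of the 1219 CORT-only distal sites in CORT replicate 1 (x axis) and replicate 2 (y axis), both on log scales, with points coloured by the element held in 200 bp around the summit and the dashed line at equal folds. The central 50% of the sites lie between 3.88 and 5.71 in replicate 1 and between 3.57 and 5.35 in replicate 2. Sites with the STAT motif are spread towards higher folds in replicate 1, with the motif searched at the summit of the list in which a site ranked higher.

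The strongest site by mean percentile lay between genes, 28.7 kb downstream of the start of Chaf1b, a subunit of the chromatin assembly factor that loads histones behind replication forks (chr16:93911972-93913286). Its fold was 28.8 in CORT replicate 1 and 66 in replicate 2, with the summits of both replicates at the same base. The next was an intronic site of Fkbp5, the co-chaperone that lowers the hormone affinity of GR and is a textbook glucocorticoid target (chr17:28497948-28498603, 19.3 kb downstream of the gene start), with folds of 21.6 and 35.0. Fkbp5 held another CORT-only distal site 21.6 kb from its start, with folds of 11.6 and 11.8. Both Fkbp5 sites were thus high in both replicates, and 2 of the 19 distal sites within 50 kb of the gene start were held by all 6 lists.

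Among the other sites of the 10 strongest, some were higher in replicate 1 and others in replicate 2. A site 225.7 kb downstream of Gadd45g, a growth arrest and stress gene, had folds of 33.8 and 17.8. The site 8.33 kb upstream of Acox2, a peroxisomal oxidase that shortens bile acid side chains, had 22.7 and 12.8, and its summits were 476 bp apart. An intronic site of Cdk17, a cyclin-dependent kinase, had 13.3 and 26.8. The remaining ones were sites in introns of Ptprg (17.7 and 14.3), Arid5b (11.1 and 19.3) and Gng7 (11.6 and 14.3), a site 404.2 kb from Pid1 (16.5 and 11.8) and a site 4.56 kb downstream of Orm1, which encodes the acute-phase protein orosomucoid (11.0 and 17.5). Of the 10 strongest sites, 3 held a palindromic GRE, 2 a STAT element and none overlapped a FOXO1 region. Over all 1219 sites these shares were 3.12%, 17% and 1.64%.

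The sites just inside the 1 kb limit, named by the nearest protein-coding gene start, lay 1004 bp (Slc3a1), 1009 bp (Onecut1) and 1013 bp (Zfp36l2) from a transcript start, and their folds ranged from 3.34 to 7.20. Just outside it were sites at 1000 bp (Ppp1r1b), 996 bp (Trpc4ap) and 993 bp (Idnk), with folds from 3.21 to 6.09. The largest q-value of a CORT-only distal site, 0.0995 in CORT replicate 2, was shared by sites near Foxn2, B3galt1 and Gbp6, all with a fold of 2.62 there.

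Sequence elements were compared between the CORT-only distal sites and the other 37336 distal sites in 200 bp around the summit. STAT elements were more frequent at the CORT-only distal sites: 207 of 1219 windows held one (17%, 95% Clopper-Pearson interval 14.9 to 19.2), against 8.99% of the other distal sites (8.70 to 9.28) and 11.6% of distal sites in all 6 lists (10.7 to 12.5). Sites with exactly 1 additional list had 11.7% (10.4 to 13.2). Intervals cover counting error only, and sites of a library are not replicates. The distal windows were also split by GC content into 3 groups, and the CORT-only distal sites had the higher STAT share in each, with 20.4% against 10.8%, 17% against 9.45% and 12.9% against 6.6% from the poorest in GC to the richest.

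The GR elements themselves differed less. The hexamer AGAACA was found in 23.8% of the windows (21.4 to 26.3) against 21.2% of the other distal sites, and this order turned around when either CORT library was left out (19.7% against 21.6% without replicate 1, 21.5% against 21.8% without replicate 2). Without ctrl. replicate 1 the shares were 21.4% and 21.3%. A palindromic GRE was present at 38 sites (3.12%, 2.22 to 4.25), against 2.19% of other distal sites (2.04 to 2.34) and 6.12% of distal sites in all 6 lists (5.47 to 6.82). The letters GAACA of the hexamer can be part of a GRE, so these counts overlap. STAT elements and GREs came together at 5 sites, and 471 sites held none of the 13 elements searched. The matching shares of other distal sites were not taken, so these 2 counts are descriptions only.

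Elements of the hepatocyte factors were at or below their level at other distal sites. C/EBP (TTGCNNAA) was found at 17.4% in both sets, but at 13.9% against 19% without CORT replicate 1 and at 13.6% against 18.9% without replicate 2. FOX (TGTTTAC) stood at 5.41% (4.21 to 6.84) against 6.11%, and at 4.13% against 6.86% without CORT replicate 1 and 3.99% against 6.78% without replicate 2. HNF4 (CAAAGTCC) was found at 2.46% (1.67 to 3.49) against 3.38%. The related DR1 repeat of nuclear receptors, which can overlap HNF4, was found at 0.656% (0.284 to 1.29) against 1.41%. Sites with exactly 1 additional list held C/EBP at 20.5%, FOX at 5.33%, HNF4 at 3.34% and DR1 at 1.07%. The FOX share was thus not particular to the CORT-only distal sites. Distal sites held by a single list had HNF4 at 1.65% and 1.63% for CORT replicates 1 and 2, and at 1.2% to 5.1% for the other lists. The E-box CACGTG, bound by clock proteins of the basic helix-loop-helix family, was held by 25 sites (2.05%, 1.33 to 3.01), against 4.17% of other distal sites (3.97 to 4.38) and 5.28% of those in all 6 lists. At the summits of CORT replicates 1 and 2 taken singly the E-box share was 1.72% and 2.13%. Windows 500 bp to either side of these summits held it at 2.13% and 2.26%, and those at other distal sites at 2.6%. Its share without each library in turn was not taken. Sites with exactly 1 additional list held the E-box at 4.13% (3.33 to 5.05). Distal sites held by CORT replicate 1 or 2 alone held it at 2.36% and 3.29%, and those of the other single lists at 3.06% to 5.12%. IRF elements (GAAANNGAA, whose ends can be shared with a STAT element) were found at 6.73% (5.39 to 8.28) against 5.85%, and AP-1 elements (TGANTCA) at 7.3% (5.9 to 8.91) against 7.73%. The ETS (CCGGAAG), NF-kB and CTCF elements were each present at 9 to 16 of the 1219 sites. Their shares were 1.31%, 1.31% and 0.738%, against 1.07%, 1.8% and 0.466% of other distal sites.

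**Figure D2:**
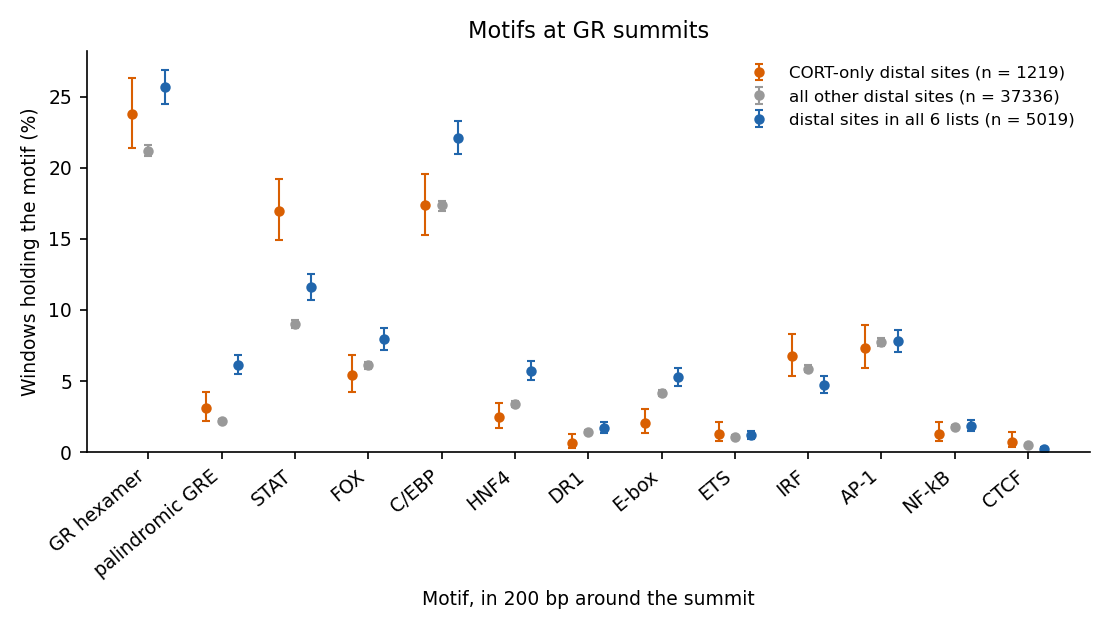
Percent of 200 bp windows around GR summits that held each of 13 elements, for the CORT-only distal sites (orange), all other distal sites (gray) and the distal sites in all 6 lists (blue), with 95% Clopper-Pearson intervals for counting error. The STAT share of the CORT-only distal sites, 17%, is above both other sets, and their E-box share, 2.05%, is below both.

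The STAT elements followed CORT replicate 1. At the replicate 1 summits of the 1219 sites, 17.5% of windows held one (15.4 to 19.7), and at the replicate 2 summits of the same sites 13% did (11.1 to 15.0). Windows 500 bp to either side held STAT elements at 7.18% and 7.51%, and the same offset from the summits of other distal sites at 6.06%. Within 20 bp of the replicate 1 summits there were 76 STAT elements, 6.23 per 100 sites, whereas beyond 100 bp their density was 1.67 per 100 sites in the same length of sequence. Around the replicate 2 summits these values were 2.95 and 2.18, so the elements were centred on the summits of replicate 1 and less so on those of replicate 2. Palindromic GREs were centred on both, with 1.39 and 1.64 per 100 sites within 20 bp.

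**Figure D3:**
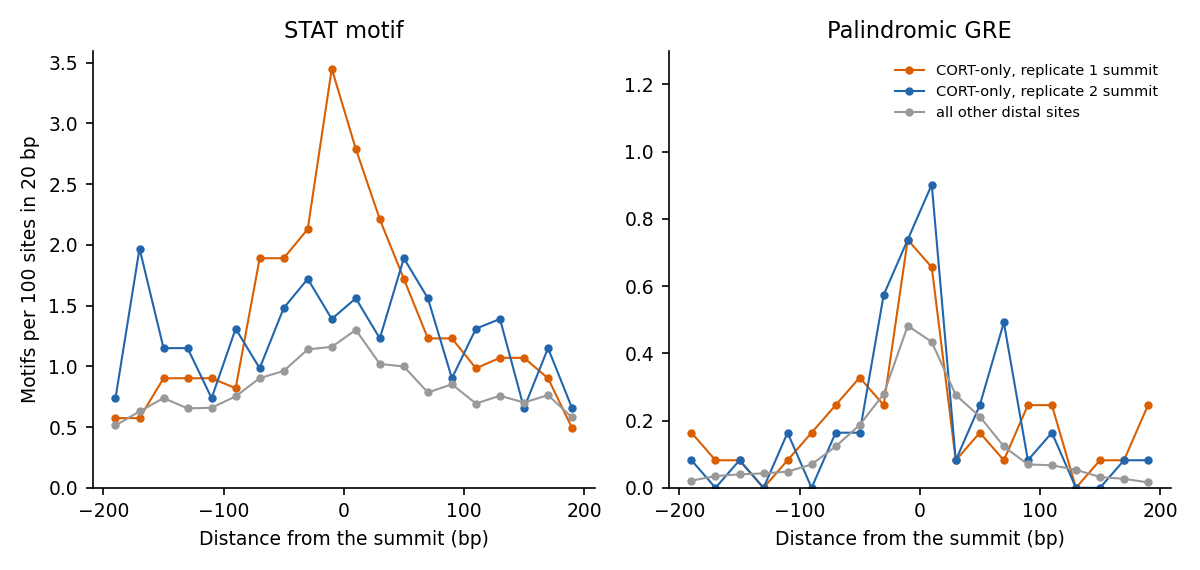
Number of STAT elements (left) and palindromic GREs (right) per 100 sites in bins of 20 bp against distance from the summit in bp, for the CORT-only distal sites at the summits of CORT replicate 1 (orange) and replicate 2 (blue) and for all other distal sites (gray). STAT elements peak at the replicate 1 summits, with 76 within 20 bp against 36 at the replicate 2 summits, and GREs peak at both, with 17 and 20.

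The same held for peak strength. The 207 sites with a STAT element had a median fold of 5.43 in CORT replicate 1 and of 4.04 in replicate 2, at percentiles 38.8 and 31.6, whereas the 1012 sites without one had 4.43 and 4.28, at percentiles 23.3 and 36.2. Of the sites with a STAT element, 124 (59.9%) ranked higher in replicate 1, against 362 (35.8%) of those without. The element was searched here at the summit of the list in which a site ranked higher, so these medians and shares depend in part on that choice. With the sites split into 4 groups of equal size by fold in replicate 1, 29.8% of the group with the highest folds held a STAT element at the replicate 1 summit (24.8 to 35.3), against 8.52% of the group with the lowest (5.64 to 12.2). By fold in replicate 2, with its own summits, the groups ran from 10.2% (7.01 to 14.1) to 15.7% (11.8 to 20.3). The palindromic GRE rose with fold in both lists, from 0.984% to 5.90% in replicate 1 and from 1.31% to 7.87% in replicate 2.

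**Figure D4:**
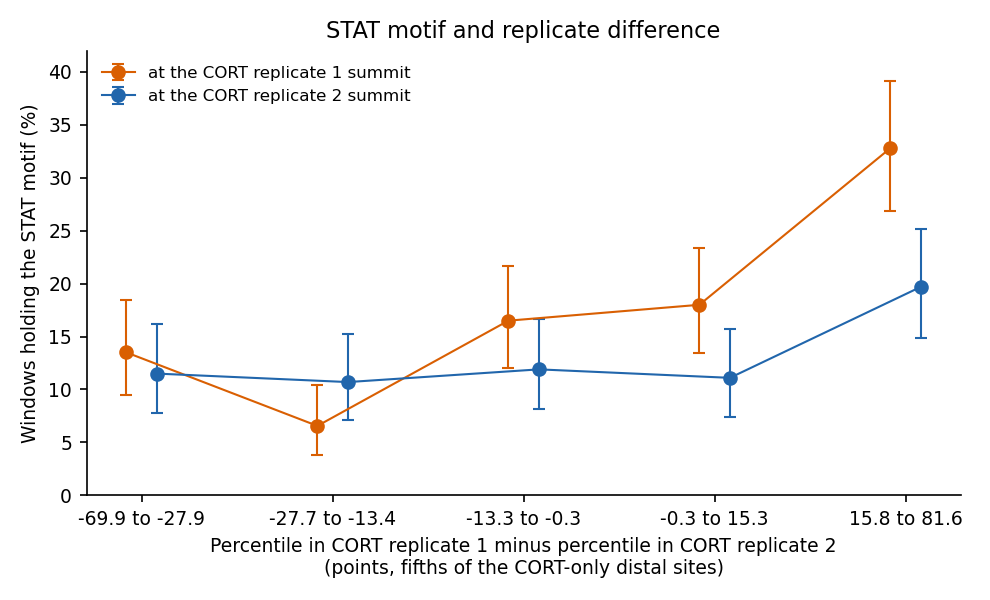
Percent of CORT-only distal sites with a STAT element at the CORT replicate 1 summit (orange) and at the replicate 2 summit (blue), in 5 groups of the sites by the difference of their within-list percentiles in points (x axis, 243 or 244 sites each), with 95% Clopper-Pearson intervals. The share at replicate 1 summits is 32.8% where replicate 1 ranked higher by the widest margin and 6.56% to 18% in the other groups. At replicate 2 summits it is 19.7% in the former group and 10.7% to 11.9% in the others.

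Lists taken 1 at a time gave the spread between libraries. Among all distal regions of a list, STAT elements were found at 14.1% in CORT replicate 1 but at 7.73% in CORT replicate 2, at 7.75% and 12.9% in ctrl. replicates 1 and 2, and at 9.66% and 8.02% in cal. res. The groups overlapped, and the replicates of CORT and of ctrl. differed more than the groups did. Distal sites held by the CORT replicate 1 list alone had STAT elements at 20.3% (18.8 to 21.9, n = 2666), above the CORT-only distal sites, and those held by CORT replicate 2 alone at 5.82% (5.30 to 6.37, n = 7444). When the rule was applied without CORT replicate 1, its 8740 sites held STAT elements at 6.82% against 8.24% of the other distal sites, the opposite order, and without CORT replicate 2 its 4140 sites held them at 18.9% against 8.92%. Without ctrl. replicate 1 the shares were 13.1% and 9.52%. These rules choose other sets of sites, and the set without CORT replicate 1 takes in the sites of replicate 2 alone. The direction of the STAT difference between such sets thus depended on CORT replicate 1, which also had the lowest rebuilt background of the 6. At the 1219 sites themselves the share at replicate 2 summits was 13%, against 8.99% of other distal sites. The part of depth in these differences was not tested.

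**Figure D5:**
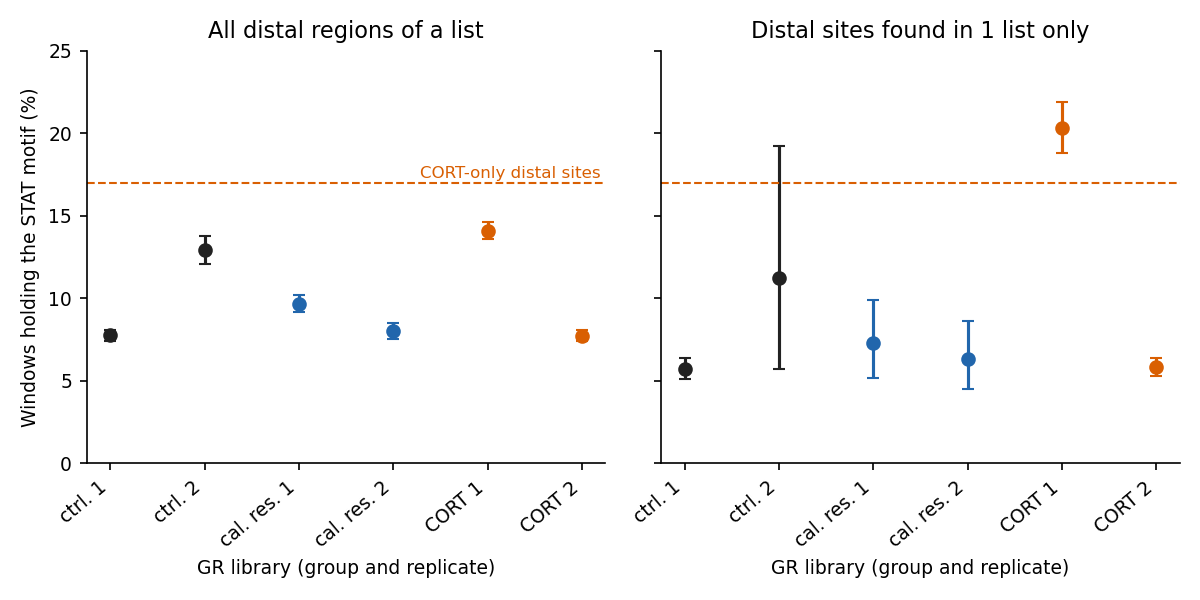
Percent of windows with a STAT element in all distal regions of each GR list (left) and in distal sites found in that list only (right), for the 6 libraries, with 95% Clopper-Pearson intervals and the share of the CORT-only distal sites as a dashed line at 17%. CORT replicate 1, at 14.1% and 20.3%, is separated from CORT replicate 2, at 7.73% and 5.82%.

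The STAT elements themselves were mostly of the form with a pyrimidine, a free base and a purine between TTC and GAA: 67.1% of the 234 elements at replicate 1 summits (60.7 to 73.1), 63.9% of the 166 at replicate 2 summits (56.0 to 71.2) and 58.2% of those at other distal sites (56.6 to 59.9). Of the 5 strongest sites with a STAT element, the second to last was the intronic site of Il1r1, the signalling receptor of interleukin-1, with a fold of 23.1 in replicate 1 and 6.53 in replicate 2. The last lay 499.5 kb downstream of Sox2, between genes, with folds of 14.9 and 7.14. Of the 5 strongest sites with a GRE, those not yet described lay 2.83 kb upstream of Obp2a, a lipocalin gene, with folds of 13.8 and 11.1, and 5.51 kb upstream of Porcn, which encodes the acyltransferase of Wnt proteins, with folds of 11.1 and 14.6. The 38 sites with a GRE, searched at the summit of the list in which a site ranked higher, had higher percentiles in replicate 2 (median 62.2) than in replicate 1 (42.3).

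Base composition and repeats were close to those of other distal sites as long as both CORT libraries were used. Mean GC content of the windows was 46.9% ± 7.02 (SD across 1219 windows) against 47.1% ± 7.39 at other distal sites, and 8.29% against 8.68% of windows lay to at least 50% in repeats. With the rule applied without CORT replicate 1 or without CORT replicate 2, mean GC content was 46.6% against 47.6% and 45% against 47.5%, and the repeat shares were 12.6% against 6.54% and 14.9% against 6.59%. Without ctrl. replicate 1, GC content was 47.6% against 47.3%. By their centres, 798 sites were in introns (65.5%), 350 between genes (28.7%, 26.2 to 31.3) and 71 in exons (5.82%), against 62.2%, 32.3% and 5.52% of other distal sites. The intergenic share was 2.18 points above that of the other sites with lists of equal length, and without CORT replicate 1 it was 25.9% against 33.9%. The median distance to a transcript start was 11.2 kb, against 11.5 kb.

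Overlap with FOXO1 regions of restricted liver was rare. Of the 1219 sites, 20 shared at least 1 bp with a FOXO1 region (1.64%, 1 to 2.52), against 14.4% of other distal sites (14 to 14.8) and 60.2% of those in all 6 lists. The comparison with other distal sites runs together with peak strength and with the absence of a cal. res. peak, which the rule required. Sites with a peak in both CORT lists and in exactly 1 other list overlapped FOXO1 at 4.73% (3.87 to 5.71, n = 2157). Where that list was ctrl. replicate 1 the share was 4.26%. Distal sites held by a single list overlapped FOXO1 at 0.788% and 1.20% for CORT replicates 1 and 2, at 1.51% and 3.06% for ctrl., and at 3.74% and 3.08% for cal. res. Among sites above percentile 75 in their strongest list, 0 of 86 CORT-only distal sites overlapped a FOXO1 region, which allows a share of up to 3.49% at 3 counts (Clopper-Pearson upper bound 4.2%), against 45.8% of 8861 other distal sites. Up to percentile 25 the shares were 1.23% and 1.31%. Most CORT-only distal sites lay between, with 1.17% of 515 against 3.29% from percentile 25 to 50, and 2.94% of 374 against 11.3% from 50 to 75. The overlapping sites had folds from 2.86 to 7.29, and 3 of the 20 held a FOX element, against 5.41% of all CORT-only distal sites. The 3 strongest of them were the site 16.1 kb downstream of Cyp4f37, a cytochrome P450 gene (folds 6.59 and 6.06), 1 that lay 2.72 kb upstream of Dcaf11, a ubiquitin ligase adaptor (5.15 and 6.90), and an intronic site of the DNA repair gene Fancc (4.98 and 6.70). Of these 3, the Dcaf11 and Fancc sites held no FOX element.

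A site held by all 6 lists lay within 10 kb of 470 CORT-only distal sites (38.6%, 35.8 to 41.4), against 30.6% of the other distal sites, those in all 6 lists left out. Once CORT-only distal sites with a ctrl. or cal. res. region within 1000 bp were left out, the shares were 30.8% and 30.9%. The other distal sites were not filtered in this way, so the 2 shares are not alike in kind. The difference was 3.44 points without CORT replicate 2 and 0.475 points without ctrl. replicate 1. Of the CORT-only distal sites, 166 (13.6%) had another within 10 kb and 375 (30.8%) within 50 kb. No matching share was taken for an equal number of other distal sites, so these values are not read as particular to the CORT-only ones.

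The genes near the sites were counted for 12 lists of liver genes, as those with a site centred within 50 kb of the gene start. Of 13154 protein-coding genes with any distal site in that range, 12.7% had a CORT-only distal site, and of the 26200 distal sites in that range 3.34% were CORT-only. Of the 256 listed genes found in the annotation, 233 had a distal site and 73 of these a CORT-only one (31.3%). Listed genes had more distal sites of any kind, a median of 9 against 3, so shares of sites are the closer comparison. Intervals given with them are Clopper-Pearson for counting error only. Sites near 1 gene are not independent, and no test was run. Without CORT replicate 1, CORT replicate 2 or ctrl. replicate 1 the 73 genes became 182, 138 and 112.

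Genes of the acute phase and complement had 16 CORT-only sites among their 195 distal sites (8.21%, 4.76 to 13) at 13 of 29 genes. Of the 16, 7 lay near 1 gene, Steap4, and without that gene 9 of 177 sites (5.08%) were left. They comprised 3 orosomucoid genes that share the site described above (Orm1, Orm2 and Orm3), the 4 serum amyloid A genes Saa1 to Saa4, haptoglobin (Hp), serum amyloid P (Apcs), complement genes C4b and Cfb, the protease inhibitor gene Serpina3n and the metalloreductase gene Steap4. Of the 3 sites near Serpina3n, the strongest was an exonic region of 6623 bp with folds of 5.54 and 11.1. Genes that lie close together can share a site, so the 13 genes are not 13 separate loci. Steap4, named here after its count was seen, had 7 CORT-only distal sites among its 18 distal sites. Their folds were from 3.32 to 6.09 in replicate 1 and from 3.53 to 6.43 in replicate 2. A STAT element was held by 2 of these 7, against 17% of all CORT-only distal sites.

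Genes of cytokine receptors and the JAK-STAT pathway had 15 of 232 sites (6.47%, 3.66 to 10.4; 5.77% without Igf1, which had 3) at 10 of 25 genes: the receptors Il1r1, Il6ra and Prlr, the kinase Jak1, the transcription factors Stat5a and Stat5b, the feedback inhibitors Socs1 and Cish, the growth hormone target Igf1 and the repressor Bcl6. Of these 15 sites, 4 held a STAT element, against 17% of all CORT-only distal sites. The intronic Il6ra site, at the gene of the interleukin-6 receptor, had folds of 7.20 and 6.43 and held one. An intronic site of Prlr, the prolactin receptor, had 5.54 and 3.93 and held none of the elements searched.

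Among classic glucocorticoid targets, 8 of 195 sites (4.10%, 1.79 to 7.92) lay near 8 of 18 genes. Beside Fkbp5 these were the clock repressor Per1, the metallothionein genes Mt1 and Mt2, which share a site 15.8 kb downstream of the start of Mt1 (folds 6.09 and 7.50), the cell cycle inhibitor Cdkn1a, the EGF receptor inhibitor Errfi1, and the repressors Bcl6 and Zbtb16. The Bcl6 site, 17.3 kb upstream, had folds of 5.54 and 6.43.

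Metabolic lists lay on either side of the background of 3.34% of sites. Gluconeogenesis and amino acid catabolism had 12 of 285 sites (4.21%, 2.19 to 7.24) at 9 of 22 genes. A site 2.74 kb upstream of the gene of pyruvate carboxylase, Pcx, had folds of 5.54 and 10.4, a site 31.5 kb upstream of the transaminase gene Gpt2 had 5.40 and 7.82, an intronic site of the urea cycle gene Cps1 had 6.16 and 5.70, and a site 28.5 kb upstream of Fbp1, fructose-1,6-bisphosphatase, had 10.3 and 3.64 and held a STAT element. Lipid genes had 8 of 320 sites (2.5%, 1.09 to 4.87). A site 16.3 kb upstream of the triglyceride synthase gene Dgat2 had folds of 5.54 and 9.27. Sites near the other named lipid genes Pnpla3, Mlxipl and Acaca had folds from 3.43 to 6.35. Genes of cholesterol and bile acids had 3 of 204 (1.47%, 0.304 to 4.24), near Cyp7a1, Abcb4 and Sqle, with folds from 2.77 to 5.54. The Cyp7a1 site lay in an exon of this rate-limiting enzyme gene of bile acid synthesis.

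The circadian clock genes had 5 of 130 sites (3.85%, 1.26 to 8.75). The strongest, 4.92 kb upstream of the repressor gene Nfil3, had folds of 19.4 and 5.71, and an intronic site of Clock, the only distal site within 50 kb of that gene's start, had 6.01 and 8.35. Sites near Tef and Ciart had folds from 3.67 to 7.92. Hepatocyte transcription factors had 11 of 262 (4.2%, 2.11 to 7.39) at 9 of 21 genes. Folds were 7.27 and 7.18 at a site upstream of Nr1h3, which encodes the oxysterol receptor LXR alpha. A site with a GRE upstream of Onecut1 had 7.20 and 6.78, and folds near Nr5a2 and Cebpb were from 4.43 to 5.35. Insulin and FOXO signalling genes had 4 of 160 (2.5%, 0.685 to 6.28), near Igfbp1, Trib1, Foxo3 and Ppargc1a, all with folds below 5.

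Secreted hepatocyte proteins and cytochromes had 8 of 248 sites (3.23%, 1.4 to 6.26). The plasma protein genes Ahsg and Hrg share the strongest of these sites, with folds of 8.30 and 9.28. An intronic site of Cyp2b10, the drug-metabolizing cytochrome, had 4.43 and 8.57, and the strongest site of Apob, in an exon, had 4.43 and 4.28. Markers of other liver cells had few sites of any kind. Kupffer cell and leukocyte markers had 0 of 24 distal sites and 0 of 10 genes, which allows shares of up to 12.5% and 30% at 3 counts. Endothelial, stellate and cholangiocyte markers had 2 of 36 (5.56%, 0.68 to 18.7). Both lay near Spp1, osteopontin, with folds of 3.88 and 6.78 at the stronger one.

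Outside the lists, the genes with the most CORT-only distal sites were likewise named after their counts were seen. The zinc importer gene Slc39a14 had 7 among its 33 distal sites, all ranked higher in CORT replicate 2 and none with a STAT element, with folds from 3.84 to 6.04 in replicate 1 and from 3.21 to 13 in replicate 2. The neighbouring calcineurin subunit gene Ppp3cc shared most of these. Over all CORT-only distal sites, 60.1% ranked higher in replicate 2 and 17% held a STAT element. Cyp2c70, which encodes the muricholic acid enzyme of mice, had 6 among 28, and Pzp, an alpha-macroglobulin gene, had 5 among 29. The highest replicate 1 fold at a site of these 4 genes was 6.82, near Cyp2c70.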

How the data were processed

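Peak lists of 6 GR ChIP-seq libraries of mouse liver, grouped by their titles, and 1 pooled FOXO1 list were analysed. According to the methods section of the study, reads were mapped by the authors to mm10 with BWA, duplicates and multiply mapped reads were discarded, GR peaks were called with MACS2 library by library, and blacklisted regions were removed. Whether an input control was used is not given in the sources used here. The fold enrichment deposited with each peak is its summit signal as a ratio to the local background, and the deposited p- and q-values are given as -log10. Distinct regions were reduced to their summit of highest fold and merged where they shared at least 1 bp. A within-list percentile is the rank of a region's fold in its list. Elements were searched on both strands of 200 bp around the summit, with RefSeq GRCm38 sequence, on chromosomes 1 to 19, X and Y, within whose lengths all regions lay. Summit pileup and background were rebuilt for peaks with -log10 p under 60 from fold = (pileup + 1) / (background + 1) and the Poisson tail, to within 0.02 of the deposited -log10 p, which worked for 100% of them. The methods were tested on simulated lists, windows and peaks.

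The members, elements and gene lists were chosen with earlier results of these data known, and no test was run. Sites were named by mean percentile in the CORT lists: the 10 highest, the 5 highest with a STAT element, the 5 highest with a GRE, the 3 highest with FOXO1, up to 4 genes for each list, and the sites next to the limits of the rule. Sequences are shown in the searched 200 bp, longer than first planned, so that the element is in view, and only where the element of that set is present. Alternatives were q-values of at most 0.01 or 1e-05, lists of equal length, other rules on overlap, distance and width, 1 library name style, other windows and summits, other FOXO1 and gene distance rules, and leaving out each library. The software was pysam 0.24.0, SciPy 1.17.1, matplotlib 3.10.9, pandas 2.3.3 and NumPy 2.4.6 under Python 3.11.15.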

Additional observations from a re-analysis of the deposited data

How the results depend on the processing

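No paired analysis was possible because the results come from no test. Differences are CORT-only distal sites minus other distal sites, in percentage points, and strength is the median percentile averaged over the CORT lists, 30.8 as reported. With lists of equal length the sites numbered 205, strength was 74.9, the FOX difference -2.89, the STAT difference 4.71 (8 as reported), the GC difference 0.889, the FOXO1 difference -30.5 (-12.8 as reported), the near-constant difference 1.67 and the listed genes 20, and the intergenic difference turned to 2.18. At q of at most 1e-05 there were 646 sites with strength 57.8, FOXO1 -21 and near-constant 2.51. At q of at most 0.01 in all lists and in the CORT lists only, strength was 37.7 in both and FOXO1 -15.4 and -14.3. The single name style gave 1848 sites, strength 36.8, FOXO1 -10.1 and near-constant 11.2. A 100 bp window gave a STAT difference of 5.28, and replicate 2 summits 3.98. FOXO1 was -13.6 with regions within 500 bp merged, -7.96 for sites of at most 1000 bp and -7.14 for the stronger FOXO1 regions. With no ctrl. or cal. res. region allowed within 1000 bp of a CORT-only distal site, the near-constant difference turned to -0.101 and the listed genes were 46. The other distal sites were not filtered there. Within 25 kb of the gene start the listed genes were 47. The cause of these moves was not tested.

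Leaving out each library in turn gave 1249 to 8740 sites, strength 17.7 to 36.4, 75 to 182 listed genes, and differences of -1.43 to 10 for STAT, -1.96 to 2.9 for the hexamer (-0.257 without CORT replicate 2), -2.79 to -0.228 for FOX, -5.3 to 1.75 for C/EBP, -2.56 to 0.321 for GC, -1.05 to 8.31 for repeats, -18 to -11.9 for FOXO1, -7.96 to -1.92 for intergenic position and 0.475 to 9.32 for near-constant position. In all, 178 values stayed close to those reported, 55 moved and 5 turned direction. These include the share of sites of each gene list without its gene with the most sites, an alternative chosen after seeing the data. A turn was counted only where the reported interval excluded the value of the other distal sites. Changes of sign for C/EBP, GC content and repeats are therefore not among the 5. The FOXO1 difference was negative under all 19 alternatives run for it. In each except the single name style, the rule still required the absence of a cal. res. peak, so these signs are not independent of the rule. Median summit pileups of 8 and 12 fragments limit what single sites can show.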
